A study of Mus musculus with 6 samples.

Results

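The 10 genes described here mark myofibroblasts and other stromal cells of the kidney: Acta2, Tagln, Fn1, Postn, Dcn, Lum, Pdgfrb, Pdgfra, S100a4 and Timp1. They were taken by symbol from a table of RNA-seq read counts for 46095 mouse genes. All 10 were found in it, and 8 of them had enough counts to be tested among 14611 tested genes. The counts came from primary renal tubular epithelial cells (PTECs) of mice aged 10 weeks on a C57 background, with 1 library per mouse and 3 libraries per genotype. Mice labelled VHL-KO (replicates 1, 2 and 4) carried Ksp-Cre and VHL fl/fl. Mice labelled VHL-KO; Setd2-KO (replicates 2, 3 and 4) carried Ksp-Cre, VHL fl/fl and Setd2 fl/fl, so VHL deletion was shared by both groups and no library with intact VHL was analysed here. Ksp-Cre is driven by the Cdh16 promoter and acts in renal tubular epithelium, so stromal cells that accompany the isolated tubules are not expected to be deleted for either gene.

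Myofibroblasts are the contractile, matrix-producing cells of a scarring kidney, and they come largely from resident fibroblasts and pericytes of the interstitium. They assemble stress fibres that contain smooth muscle actin, and they secrete fibronectin, collagens and proteoglycans into the space between tubules. Signals such as TGF-β and platelet-derived growth factors drive their expansion, and loss of SETD2, the enzyme that trimethylates lysine 36 of histone H3, was studied here for its part in fibrosis when VHL is absent. The comparison asks whether transcripts of this programme were higher in tubule preparations labelled as lacking both genes than in those labelled as lacking VHL alone.

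Across the 3 libraries per label none of the genes differed beyond the spread between mice. The smooth muscle genes Acta2 and Tagln were dominated by 1 library, that labelled VHL-KO replicate 4, and without it Acta2, Tagln and Fn1 lay higher in every VHL-KO; Setd2-KO library than in the remaining VHL-KO ones, by 3.21-fold, 4.70-fold and 2.15-fold, with none passing the adjusted threshold. In that comparison 20.1% of all tested genes lay higher and 21.4% lower without overlap. The other genes followed different libraries. Pdgfrb, Pdgfra and S100a4 were highest in VHL-KO; Setd2-KO replicate 2, and Dcn and Lum in replicate 3.

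Totals ranged from 11168552 to 17883466 counts per library, and 3 counts, taken as the smallest signal told from 0, corresponded to 0.168 to 0.269 CPM, the unit of library-size-scaled counts used below (TMM factors of edgeR). This floor covers counting error only. The library labelled VHL-KO replicate 4 stood apart from the others. Its median Spearman correlation across genes with them was 0.741 against 0.942 to 0.961 for the rest, and mitochondrial transcripts took 11.3% of its counts against 25.9% to 36.4%. Setd2 itself had 12.3 CPM there, 71.3 and 73.8 CPM in VHL-KO replicates 1 and 2, and 57.3 to 89.5 CPM in VHL-KO; Setd2-KO replicates 2, 3 and 4. The Setd2 level thus went against the labels, although gene counts include exons outside a deleted part, and Vhl reads were likewise counted in all 6 libraries (11.8 to 25.8 CPM). Cdh16, whose promoter drives the Cre, was present throughout (331 to 2252 CPM). In VHL-KO; Setd2-KO replicate 3, Xist, the RNA that coats a silenced X chromosome, had 11704 counts against 0 to 4 in the others. Xist was chosen after its values were seen, and the labels give no sex. Directions below refer to the labels.

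The study measured Acta2 and Fn1 by RT-qPCR with designed primers, shown here because they fix which part of each transcript that assay reads, whereas the counts cover whole genes. By its figure legend, that assay used mice older than the 10 weeks of the counts. Its methods, however, name PTECs of mice aged 10 weeks as a source of RNA for RT-qPCR. Whether age differs between the assays is therefore unclear. The paper reported both as higher in VHL-KO; Setd2-KO than in VHL-KO mice. Positions are GRCm38, and both genes lie on the minus strand.
Acta2 forward: gtcccagacatcagggagtaa
Acta2 reverse: tcggatacttcagcgtcagga
Fn1 forward: atgtggacccctcctgatagt
Fn1 reverse: gcccagtgatttcagcaaagg
The Acta2 pair matched 2 of 2 annotated transcripts. Its forward primer spans the junction of exons 2 to 3 of 9, and its reverse primer lies in exon 3 (chr19:34251771-34251791), with a product of 102 bases. The Fn1 pair lies within exon 19 of 46 (forward chr1:71626164-71626184, reverse chr1:71626061-71626081, product of 124 bases) and matched 7 of 17 annotated Fn1 transcripts.

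The Acta2 promoter is printed because Acta2 and Tagln varied more between libraries than the other 8 genes, and smooth muscle genes of this kind are known targets of serum response factor, which binds the CArG box. The 250 bases before the RefSeq start of Acta2 (GRCm38.p6, chr19:34255374-34255623, minus strand) follow, with CArG-like matches in capitals, that is, matches to the CArG box with at most 1 C or G among the 6 bases of its A or T core.
Acta2 promoter: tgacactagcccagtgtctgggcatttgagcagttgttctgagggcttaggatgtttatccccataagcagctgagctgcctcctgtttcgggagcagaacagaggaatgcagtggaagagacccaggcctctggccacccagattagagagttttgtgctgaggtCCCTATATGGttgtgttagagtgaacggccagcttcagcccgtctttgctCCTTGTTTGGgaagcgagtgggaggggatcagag
The window held 2 such matches, CCCTATATGG starting 84 bases and CCTTGTTTGG starting 34 bases before the start, and no match with a core of A or T alone. Distances refer to the RefSeq start. The gene span given below for Acta2 (GENCODE) runs to chr19:34255590, within the window, so both matches lie inside that span. The motif reads the same way on both strands, so 1 strand was searched. Of 32851 RefSeq promoter windows of the same length, 8.59% held at least 1 CArG-like match, 0.67% held 2 or more and 1.47% held a match with a core of A or T alone. Promoters were found in the table used here for 5 of the 10 genes, and those of Postn, S100a4, Pdgfra and Timp1 held no CArG-like match in this window. A match describes these letters alone, and binding was not measured here.

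Acta2 (ENSMUSG00000035783.9, chr19:34241090-34255590) encodes smooth muscle actin, the protein by which myofibroblasts are usually recognised. Its level was 3.75, 6.74 and 104 CPM in VHL-KO replicates 1, 2 and 4, and 10.6, 30.1 and 9.39 CPM in VHL-KO; Setd2-KO replicates 2, 3 and 4. VHL-KO replicate 4 lay above every other library and VHL-KO replicates 1 and 2 below every other, so the groups overlapped. The group means were 38.2 ± 57.1 CPM and 16.7 ± 11.6 CPM (SD, n = 3 each), and the log2 fold change of VHL-KO; Setd2-KO over VHL-KO was -1.19 ± 1.15 (SE, 95% interval -3.84 to 1.46, edgeR quasi-likelihood test, adjusted p = 0.741). The interval spans a 0.0698-fold to a 2.75-fold level, so neither a large fall nor a large rise could be told from no difference.

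Tagln (ENSMUSG00000032085.5, chr9:45929619-45936058) encodes transgelin, an actin-binding protein of smooth muscle. Its libraries fell in the same order as those of Acta2, with 3.03, 4.62 and 124 CPM in the VHL-KO libraries and 9.23, 35.3 and 8.89 CPM in the VHL-KO; Setd2-KO libraries. The groups overlapped again, with a log2 fold change of -1.30 ± 1.30 (SE, 95% interval -4.29 to 1.70, edgeR, adjusted p = 0.748). Between the lowest and highest library, Acta2 differed by 27.7-fold and Tagln by 40.9-fold in CPM, although Tagln counts per Acta2 count stayed between 0.685 and 1.19. The within-group SD of log2 CPM was 1.91 for Acta2 and 2.20 for Tagln, wider than in 99.2% and 99.6% of tested genes. For the other 8 genes it was 0.75 to 1.12, beside a median of 0.71 over all tested genes. Tagln shares 877 exon bases with the antisense gene Gm48529 and 94 with Pcsk7, and whether the counting used strand is not given in the sources used here, so its reads cannot be fully told apart from theirs.

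**Figure D1:**
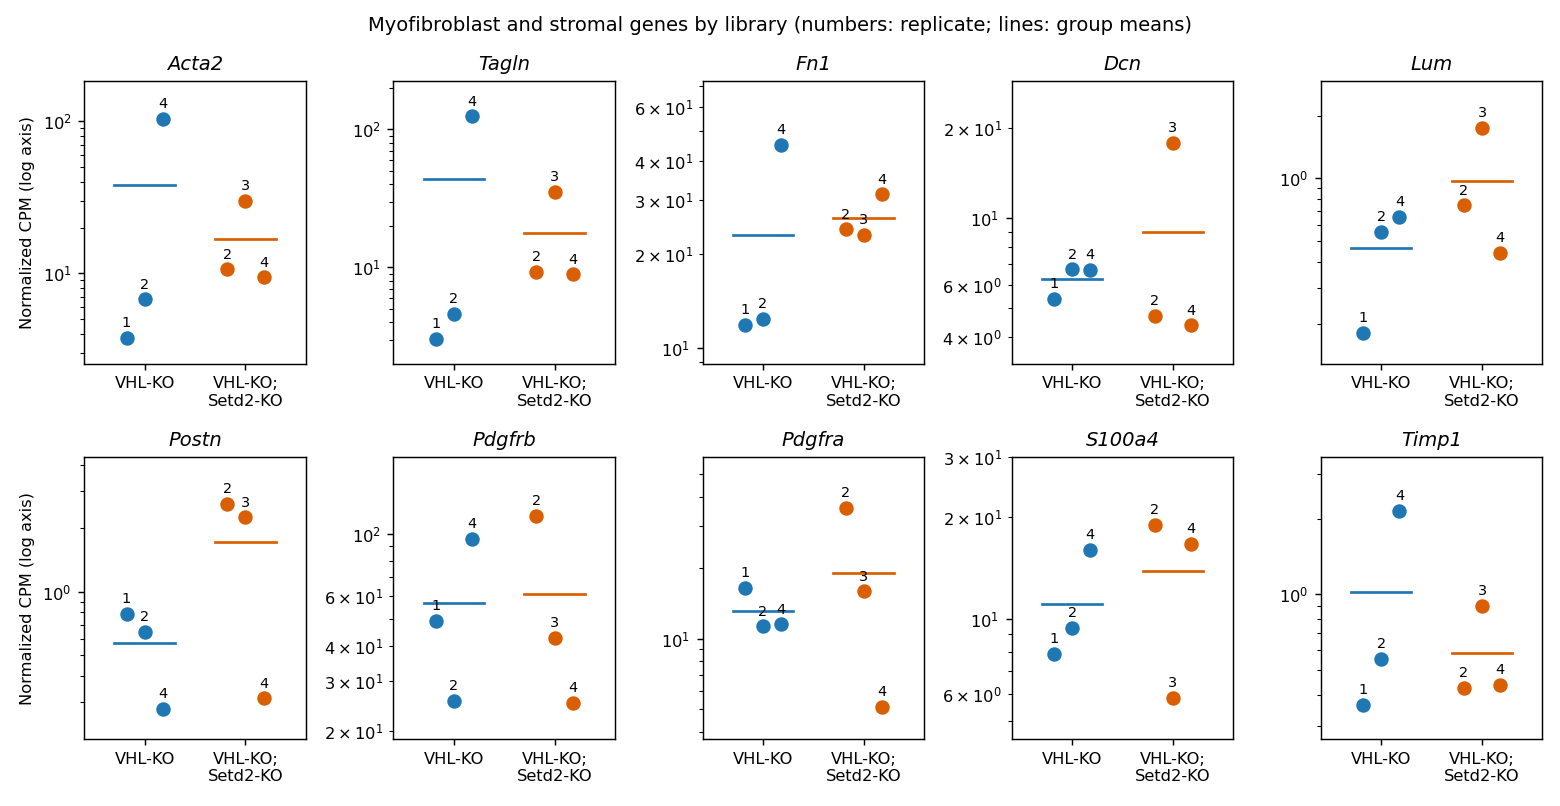
Each panel shows 1 gene, with normalized CPM on a log axis, 1 point per library (the number beside it is the replicate) and a line at each group mean. Acta2 and Tagln peak in VHL-KO replicate 4 (104 and 124 CPM), with VHL-KO; Setd2-KO replicate 3 second, and the groups overlap in all 10 panels.

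Among matrix genes, Fn1 (ENSMUSG00000026193.15, chr1:71585520-71653200) encodes fibronectin, the scaffold on which collagen fibrils are laid down. It had 11.9, 12.4 and 45.3 CPM in the VHL-KO libraries and 24.1, 23.2 and 31.2 CPM in the VHL-KO; Setd2-KO libraries. The latter were the tighter group (26.2 ± 4.43 CPM against 23.2 ± 19.1 CPM, SD, n = 3 each) and lay between VHL-KO replicate 2 and VHL-KO replicate 4. The log2 fold change was 0.18 ± 0.58 (SE, 95% interval -1.15 to 1.51, edgeR, adjusted p = 0.917). Fn1 shares 227 exon bases with the antisense gene Apol7d.

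Postn (ENSMUSG00000027750.16, chr3:54361109-54391037) encodes periostin, a matricellular protein of injured tissue that is scarce in healthy kidney. Its counts were low, 13, 7 and 3 in the VHL-KO libraries and 49, 40 and 5 in the VHL-KO; Setd2-KO libraries. In CPM these were 0.787, 0.646 and 0.280 against 2.60, 2.25 and 0.313. Replicates 2 and 3 of the VHL-KO; Setd2-KO mice lay above all VHL-KO libraries, and replicate 4 lay near the floor beside VHL-KO replicate 4. Its log2 fold change of 1.57 ± 0.83 (SE, 95% interval -0.33 to 3.48) was the largest of the 8 tested genes and did not pass (edgeR, adjusted p = 0.625).

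Dcn and Lum encode decorin and lumican, small leucine-rich proteoglycans that bind collagen fibrils and mark resident fibroblasts. Dcn (ENSMUSG00000019929.16, chr10:97479609-97518143) had 5.39, 6.74 and 6.72 CPM in the VHL-KO libraries and 4.72, 17.8 and 4.38 CPM in the VHL-KO; Setd2-KO libraries. Lum (ENSMUSG00000036446.5, chr10:97565128-97572703) had 3, 6 and 7 counts against 14, 31 and 7, too few to pass the filter. Both peaked in VHL-KO; Setd2-KO replicate 3, the library with Xist counts, and for Dcn the other VHL-KO; Setd2-KO libraries lay below all 3 VHL-KO libraries. The log2 fold change of Dcn was 0.51 ± 0.61 (SE, edgeR, adjusted p = 0.780), and without VHL-KO; Setd2-KO replicate 3 it was -0.45. Fitted without the filter, Lum had a log2 fold change of 1.18 ± 0.84 (SE, edgeR, adjusted p = 0.755).

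Pdgfrb and Pdgfra encode the receptors for platelet-derived growth factors, the first the classical marker of pericytes and mesangial cells and the second of interstitial fibroblasts. Pdgfrb (ENSMUSG00000024620.11, chr18:61045150-61085061) had 49.3, 25.7 and 96.0 CPM in the VHL-KO libraries and 115, 42.7 and 25.2 CPM in the VHL-KO; Setd2-KO libraries. Pdgfra (ENSMUSG00000029231.15, chr5:75152292-75198215) had 16.5, 11.3 and 11.5 CPM against 35.9, 15.9 and 5.13 CPM. For both receptors VHL-KO; Setd2-KO replicate 2 was highest and replicate 4 lowest of all 6 libraries, so the widest contrast lay within 1 genotype. Log2 fold changes were 0.10 ± 0.69 for Pdgfrb and 0.54 ± 0.65 for Pdgfra (SE, edgeR, adjusted p = 0.963 and 0.785). Both turned negative without VHL-KO; Setd2-KO replicate 2 (-0.72 and -0.31). Pdgfra shares 456 exon bases with the antisense gene Gm42802 and 30 with Mir7025 on the same strand.

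S100a4 (ENSMUSG00000001020.8, chr3:90603771-90606045) encodes a small calcium-binding protein, also called fibroblast-specific protein, that leukocytes express as well. It had 7.87, 9.42 and 15.96 CPM in the VHL-KO libraries and 18.9, 5.85 and 16.7 CPM in the VHL-KO; Setd2-KO libraries. Replicates 2 and 4 of the VHL-KO; Setd2-KO mice were the highest libraries and replicate 3 the lowest, with a log2 fold change of 0.32 ± 0.54 (SE, edgeR, adjusted p = 0.836). It shares 302 exon bases with Gm42674 on the same strand, and reads there are uncertain. Timp1 (ENSMUSG00000001131.11, chrX:20870166-20874735), an inhibitor of matrix metalloproteinases that is induced in fibrotic tissue, had 6, 6 and 23 counts against 8, 16 and 7. Only VHL-KO replicate 4 and VHL-KO; Setd2-KO replicate 3 held more than 8, and Timp1 did not pass the filter (log2 fold change without it -0.68 ± 0.83, SE, edgeR, adjusted p = 0.756).

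Over the 10 genes, mean CPM was higher in the VHL-KO; Setd2-KO group for 7 and lower for 3 (Acta2, Tagln and Timp1). At an unadjusted p under 0.05 and a fold change of 1.5 or more, 0 of 8 tested genes were higher, beside 2.66% of all tested genes, and 0 were lower, beside 4.68%. At an adjusted p under 0.05, 0 of 8 passed, beside 0.00684% of all tested genes (1 gene, Gm6344, chosen after its values were seen). Limma-voom also gave 0 of 8 at both thresholds. DESeq2 gave 0 at the unadjusted threshold for the 6 genes to which it assigned a p, none for Acta2 and Tagln, and no adjusted p for any of the 8, while it called 51 genes of the whole table at the adjusted threshold. The groups overlapped for all 10 genes, whereas they did not overlap for 20.6% of all tested genes (9.62% in the higher direction). The median log2 fold change was 0.25 over the 8 genes and 0.01 over all tested genes. The number of stromal cells and the RNA per stromal cell cannot be told apart in such bulk libraries.

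Scaled to exon length, the median level over the 6 libraries was highest for S100a4 (25.5 CPM per kb, range 11.7 to 37.9), followed by Pdgfrb (8.40, range 4.61 to 21.1), Tagln (5.68, range 1.90 to 77.6) and Acta2 (4.91, range 1.84 to 51.2). Dcn (3.12), Fn1 (2.79) and Pdgfra (1.56) came next, and Timp1 (0.559), Lum (0.247) and Postn (0.218) were lowest. The ranges of neighbours in this order overlapped throughout. The median of the receptor Pdgfrb thus exceeded that of the actin gene per length. In VHL-KO replicate 4 and VHL-KO; Setd2-KO replicate 3 the order changed, with Tagln (77.6 and 22.1 CPM per kb) and Acta2 (51.2 and 14.8 CPM per kb) above the other 8.

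Without the library labelled VHL-KO replicate 4, 15000 genes and 9 of the 10 genes were tested (Timp1 again failed the filter), with 2 VHL-KO against 3 VHL-KO; Setd2-KO libraries. Acta2, Tagln and Fn1 were then higher at the unadjusted threshold. Acta2 had a log2 fold change of 1.68 ± 0.62 (SE, 95% interval 0.16 to 3.20, edgeR, adjusted p = 0.216), and Tagln one of 2.23 ± 0.74 (SE, edgeR, adjusted p = 0.187). Both had the opposite sign with the library included. Fn1 had the smallest error, 1.11 ± 0.19 (SE, edgeR, adjusted p = 0.0784), which is a 2.15-fold level with a 95% interval of 1.56 to 2.97. These 3 of 9 stand beside 8.29% of all genes tested, and 0 were lower, beside 7.15%. None passed the adjusted threshold, beside 0.00667% of all tested genes, again Gm6344 alone. The same 3 genes did not overlap between the groups, beside 20.1% of all genes in the higher direction and 21.4% in the lower. The other 6 genes, from Pdgfra (0.45 ± 0.73) to Lum (1.49 ± 0.87), also had positive log2 fold changes and overlapping groups, and the median over the 9 was 1.11 against 0.04 over all tested genes. Marker lists of other cells also had medians away from 0 in this fit. That of collecting duct markers was 1.93 (4 of 8 higher), against 0.52 with all libraries. The others stayed closer to their values with all libraries. They were 1.12 against 1.09 for podocyte markers (4 of 7 higher) and 0.89 against 1.02 for endothelial markers (1 of 9 higher, all 9 positive). For proximal tubule markers the median was -0.90 against -1.10 (8 of 12 lower).

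**Figure D2:**
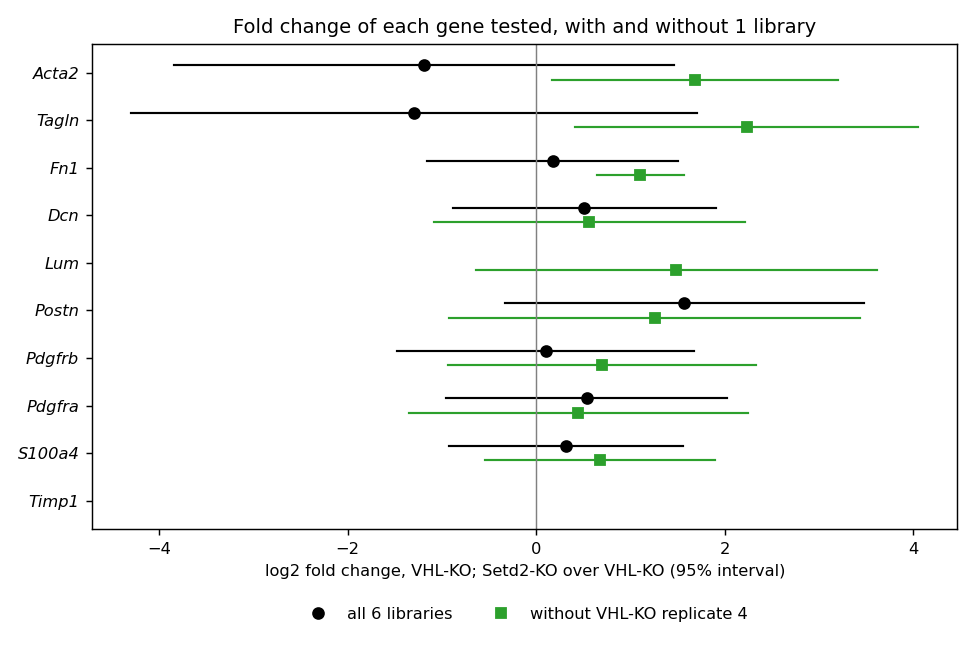
Log2 fold change of VHL-KO; Setd2-KO over VHL-KO for each gene tested, with 95% intervals from edgeR, for all 6 libraries (black circles) and without VHL-KO replicate 4 (green squares). Acta2 moves from -1.19 to 1.68 and Tagln from -1.30 to 2.23, and only for Acta2, Tagln and Fn1 does the second interval lie above 0, while Timp1 was tested in neither fit and Lum in the second alone.

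That library also differed from the others by gene length. Relative to the mean of the other 5 libraries, its median log2 difference was 1.12 for genes with up to 1000 exon bases, 1.02 for the class up to 2000, 0.25 up to 4000, -0.79 up to 6000 and -1.53 for longer genes. Acta2 (2035 bases) was 3.44 and Tagln (1595 bases) 3.86 above the others, beyond the middle 50% of their classes. Fn1 (8479 bases) and Pdgfrb (5478 bases) were 1.24 and 1.14 above, in classes with negative medians, while Pdgfra (8767 bases) was -0.29. Dcn (0.0049), Lum (0.11) and S100a4 (0.58) were near the level of the other libraries, Timp1 was 1.82 above and Postn -1.49. The part of length in these values was not tested.

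**Figure D3:**
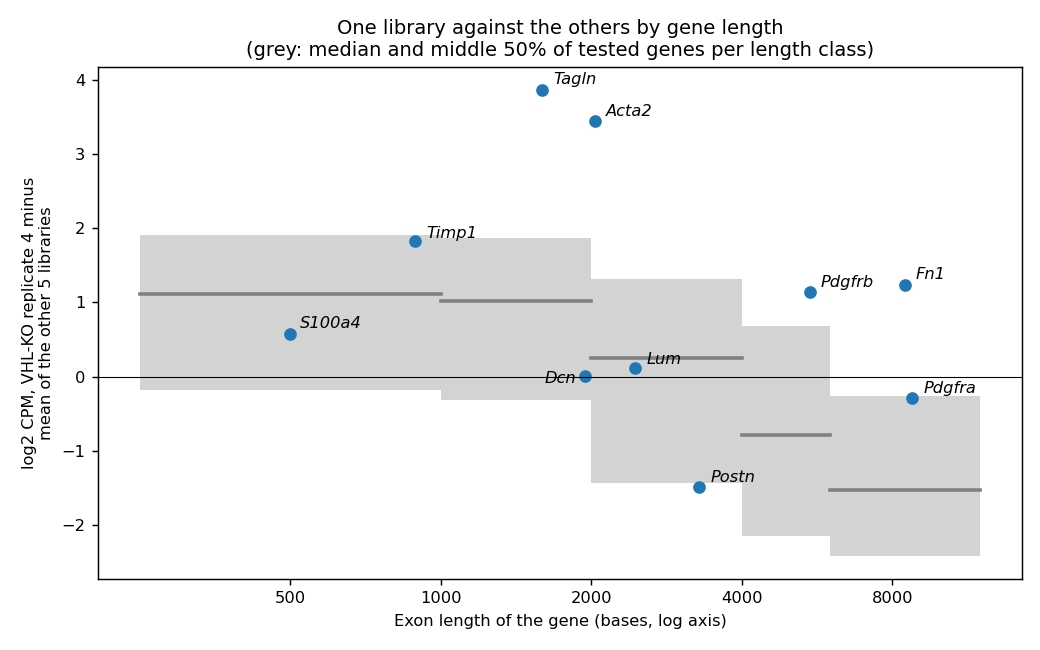
Difference in log2 CPM between the library labelled VHL-KO replicate 4 and the mean of the other 5 libraries, against exon length (log axis), with the median and middle 50% of tested genes per length class in grey and the 10 genes as points. The class medians run from 1.12 in the shortest to -1.53 in the longest genes, and Acta2, Tagln, Fn1 and Pdgfrb lie above the grey band of their class.

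Further fibroblast and matrix genes, 26 of 32 tested, gave 3 higher and 0 lower at the unadjusted threshold, beside 2.66% and 4.68% of all tested genes (edgeR, lowest adjusted p = 0.625 in this list and no adjusted call in any list). Efemp1, an elastic fibre protein, had 3.51, 5.73 and 3.27 CPM in the VHL-KO libraries and 8.43, 13.8 and 13.1 CPM in the others, a log2 fold change of 1.5 ± 0.44 (SE). Col5a2, a fibril-forming collagen chain, had 15.7, 15.9 and 19.4 CPM against 35.2, 39.7 and 40.4 CPM, a log2 fold change of 1.18 ± 0.35 (SE). Loxl2, an enzyme that cross-links collagen, was 1.08 ± 0.43 (SE). These 3 were named because they had passed the unadjusted threshold. They did not overlap between groups, beside 9.62% of all tested genes in the higher direction. Groups that do not overlap keep their direction when 1 library is left out. The fit without VHL-KO replicate 4 is therefore no separate support for these 3 genes. The median over the list was -0.25 with all libraries and 0.91 without that one. In the fit without it 13 of 26 were higher at the unadjusted threshold, beside 8.29% of all tested genes, and all 26 log2 fold changes were positive. The 3 largest of those 13 were Loxl1 (2.68 ± 0.79), Serpinf1 (2.33 ± 0.81) and Loxl2 (1.44 ± 0.25, SE). Col1a1, the major collagen chain of scars, had 1.39, 1.75 and 44.8 CPM against 1.06, 5.45 and 0.814 CPM. It took its highest values in the same libraries as Acta2 but was not among the 13, and was chosen after its values were seen.

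The remaining contractile genes (19 of 22 tested) gave 0 calls in either direction by edgeR, with a median of -0.04. Myl6, a myosin light chain and the gene of this list with the highest counts, had 222, 227 and 797 CPM against 321, 279 and 270 CPM. Its groups overlapped only through VHL-KO replicate 4. Without that library 2 of 19 were higher, Actn1 (0.91 ± 0.21) and Cnn2 (0.84 ± 0.30, SE), and the median was 0.49. Among pericyte and mural genes (11 of 12 tested), Rgs5, a pericyte marker, was higher (1.33 ± 0.52), and the subunits of the vascular ATP-sensitive potassium channel, Kcnj8 (-1.69 ± 0.66) and Abcc9 (-1.39 ± 0.55, SE), were lower. The list median was -0.72 with and 0.46 without VHL-KO replicate 4, when Kcnj8 was -0.76 and no longer passed. Ren1, the renin gene of juxtaglomerular cells, had 6.90, 14.2 and 300 CPM against 22.9, 68.0 and 20.0 CPM, with the same 2 highest libraries as Acta2 and Tagln. Ren1 was chosen after its values were seen.

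Partners and relatives of these proteins gave few calls. Of 4 PDGF ligand genes none passed, and Pdgfb, the ligand for Pdgfrb that endothelium makes, had 40.4, 47.6 and 108 CPM against 125, 53.3 and 104 CPM. Relatives of Dcn, Lum and Postn (7 of 10 tested, Epyc and Kera at 0 in every library) gave 0 calls by edgeR, and biglycan (Bgn) had 48.2, 55.4 and 307 CPM against 150, 94.7 and 52.4 CPM. Of 10 tested S100 genes 2 were higher, S100a9 (1.77 ± 0.63) and S100a8 (1.48 ± 0.62, SE), both neutrophil proteins at under 8 CPM. Of 20 tested matrix proteases and inhibitors 1 was higher, Plat, the tissue plasminogen activator (1.14 ± 0.45, SE). Of 14 genes for fibronectin receptors and matrix assembly 1 was higher, Itgb3 (1.70 ± 0.47, SE), with 3.15, 4.25 and 4.20 CPM against 8.86, 19.3 and 9.33 CPM. Of 18 TGF-β-responsive genes 2 were higher, the latent TGF-β activator Thbs1 (1.34 ± 0.41) and the transcription factor Snai2 (1.37 ± 0.5, SE). Medians of these 6 lists lay between -0.32 and 0.30 with all libraries. Without VHL-KO replicate 4, 4 of the 18 TGF-β-responsive genes, 4 of the 10 S100 genes and 4 of the 20 proteases and inhibitors were higher, beside 8.29% of all tested genes, and 1 protease gene was lower (Plau, -0.81 ± 0.19, SE). In the same fit 2 fibronectin receptor and assembly genes were higher and 2 lower (Itgb6, -1.34 ± 0.27, and Itgb8, -0.81 ± 0.22, SE), 1 of 4 PDGF ligand genes was higher (Pdgfb, 1.09 ± 0.37, SE), no relative of Dcn, Lum and Postn passed, and S100a8 (1.16 ± 0.52, SE) lost its call.

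**Figure D4:**
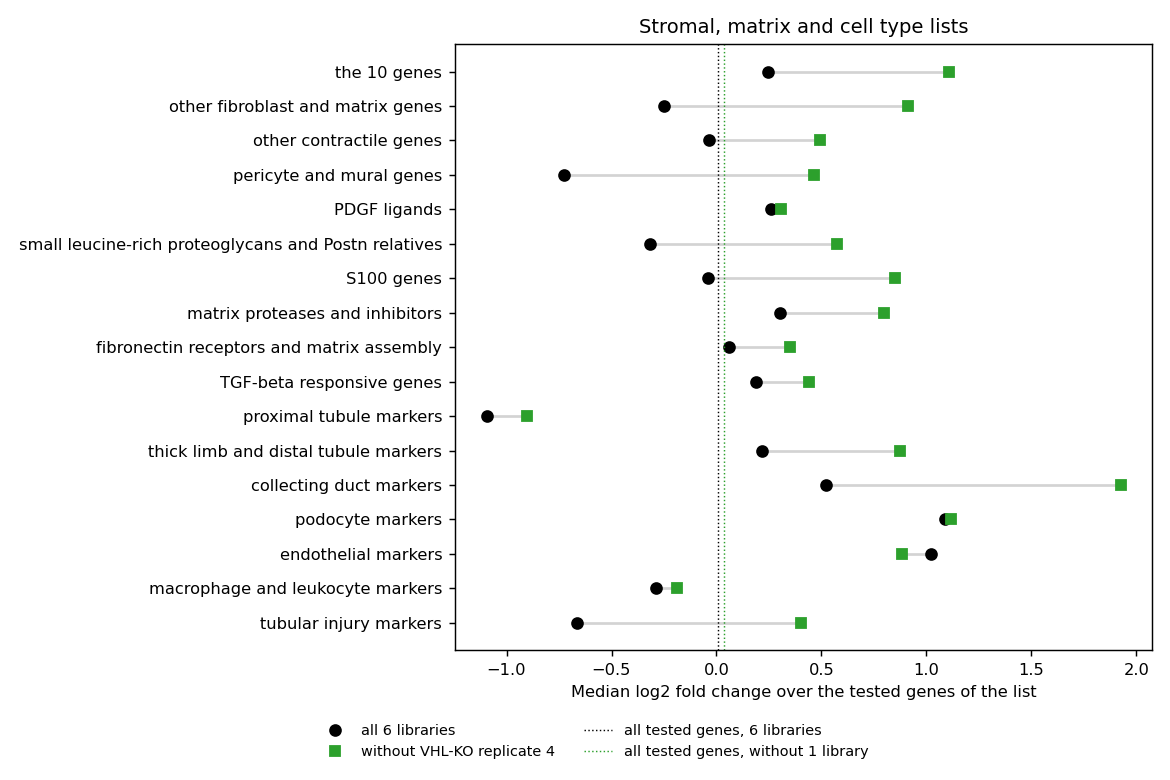
Median log2 fold change of VHL-KO; Setd2-KO over VHL-KO over the tested genes of each list, for all 6 libraries (black circles) and without VHL-KO replicate 4 (green squares), with dotted lines at the medians of all tested genes. The 10 genes move from 0.25 to 1.11 and the other fibroblast and matrix genes from -0.25 to 0.91, whereas proximal tubule markers stay negative (-1.10 and -0.90).

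Markers of the cells that such preparations can hold varied between libraries too. All 12 proximal tubule markers were counted, but so were all 7 podocyte and 9 endothelial markers. Being counted thus does not tell the cell type. The summed level of the 12 proximal tubule markers was 32575 to 36978 CPM in the VHL-KO libraries and 11997 to 15686 CPM in the VHL-KO; Setd2-KO libraries. Of these 12, 4 were lower at the unadjusted threshold, led by Slc22a6 (-1.93 ± 0.53), Slc34a1 (-1.66 ± 0.59) and Aqp1 (-1.39 ± 0.56, SE). The count was 8 without VHL-KO replicate 4, 2 without VHL-KO; Setd2-KO replicate 3, 1 without replicate 2, 1 without replicate 4 and 0 with the replicate block. Of 7 podocyte markers 4 were higher (list median 1.09), among them Wt1 (1.5 ± 0.48) and Ptpro (1.27 ± 0.51, SE). That count was 0 without VHL-KO; Setd2-KO replicate 2 and 0 without replicate 4, 2 without VHL-KO replicate 1, and 1 with the replicate block. The podocyte sum was 1514 to 2172 CPM against 2075 to 5097 CPM and the sum of 9 endothelial markers 1908 to 2587 CPM against 2101 to 5902 CPM, each highest in VHL-KO; Setd2-KO replicate 2, where Pdgfrb also peaked. No endothelial marker passed with all libraries (list median 1.02), and Kdr had the most counts (1.19 ± 0.65, SE), whereas 5 of 9 were higher without VHL-KO; Setd2-KO replicate 3.

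Collecting duct markers followed the order of Acta2 and Tagln at the top. Their sum was 504 CPM in VHL-KO replicate 4, 323 CPM in VHL-KO; Setd2-KO replicate 3 and 66.9 to 124 CPM elsewhere. Slc26a4 was higher (1.47 ± 0.62, SE), and Aqp2, chosen after its values were seen, had 2.72, 9.05 and 257 CPM against 8.49, 53.8 and 11.6 CPM. Among thick limb and distal tubule markers, with sums of 1786 to 7069 CPM against 1925 to 5043 CPM, 2 of 8 were higher (Calb1, 1.87 ± 0.67, and Kcnj1, 1.63 ± 0.63, SE). Among 11 tested macrophage and leukocyte markers 2 were lower (C1qa, -2.08 ± 0.79, and C1qb, -2.03 ± 0.77, SE; without VHL-KO replicate 4, -0.94 and -1.10 with neither called), with sums of 173 to 776 CPM against 158 to 379 CPM. Of 9 tested tubular injury markers Spp1 was higher (1.88 ± 0.80), and Havcr1 (-2.25 ± 0.61) and Krt8 (-1.64 ± 0.64, SE) were lower, with sums of 360.2 to 1082 CPM against 474 to 1681 CPM. Without VHL-KO replicate 4, Krt8 was -0.58 and under the fold threshold, Spp1 (1.5 ± 0.80), Slc26a4 (1.48 ± 0.71), Calb1 (1.57 ± 0.66) and Ptpro (1.06 ± 0.43, SE) no longer passed, and the median of the injury list turned from -0.67 to 0.40. The part of these cell types in the levels of the 10 genes was not tested.

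**Figure D5:**
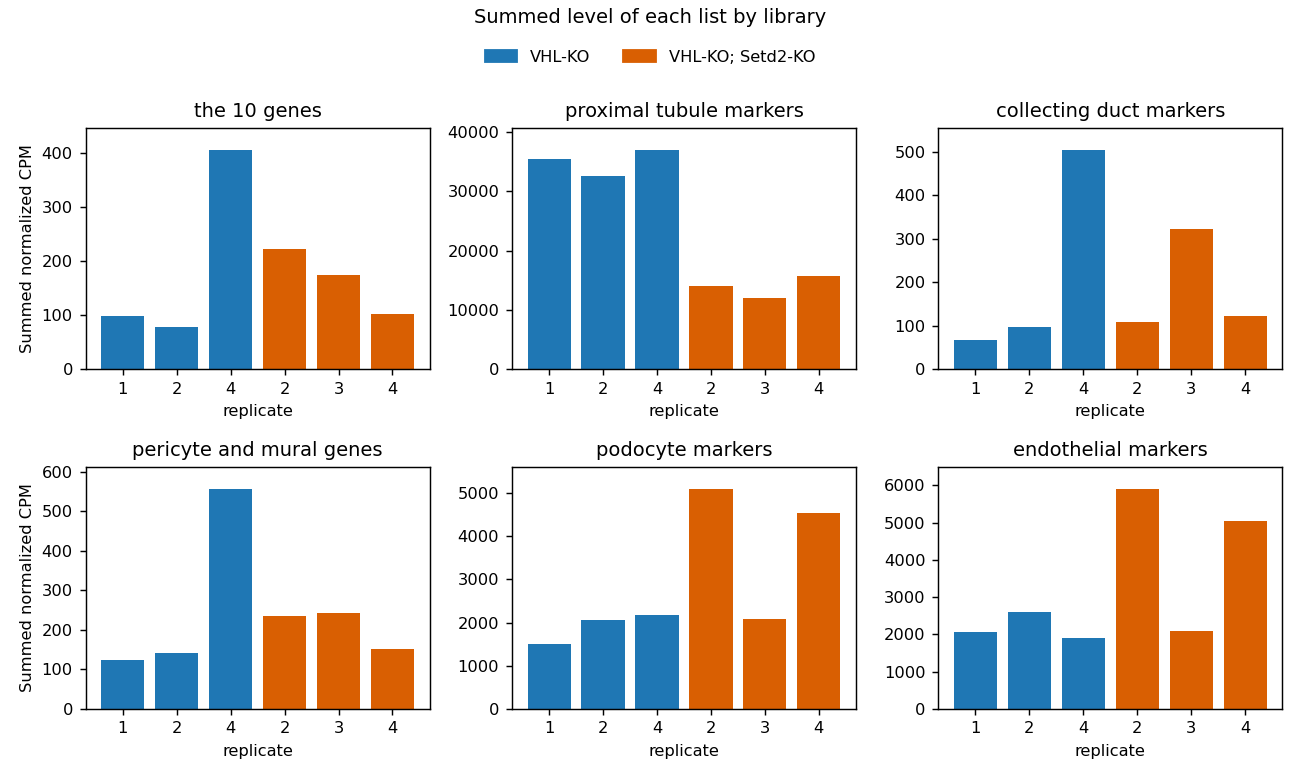
Summed normalized CPM of each list in each library (blue, VHL-KO; orange, VHL-KO; Setd2-KO; axes start at 0 and differ between panels). The 10 genes sum to 406 CPM in VHL-KO replicate 4 and 78.6 to 223 CPM elsewhere, collecting duct and mural sums share that peak, and podocyte and endothelial sums peak in VHL-KO; Setd2-KO replicates 2 and 4.

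The 10 genes did not all peak in the same library, although the low counts of Postn, Lum and Timp1 leave their peaks uncertain. VHL-KO replicate 4 was highest for 4 of them (Acta2, Tagln, Fn1 and Timp1), VHL-KO; Setd2-KO replicate 2 for 4 (Pdgfrb, Pdgfra, Postn and S100a4) and VHL-KO; Setd2-KO replicate 3 for 2 (Dcn and Lum). Acta2 and Tagln together summed to 228 CPM in VHL-KO replicate 4 and 65.4 CPM in VHL-KO; Setd2-KO replicate 3, against 6.78 to 19.8 CPM elsewhere. Per Pdgfrb count this was 2.37 and 1.53 in those libraries and 0.138 to 0.725 in the others. The Pdgfra count per Pdgfrb count was 0.12 in VHL-KO replicate 4 and 0.203 to 0.439 in the others, while Pdgfra itself, at 11.5 CPM, was within the range of the other libraries there and Pdgfrb, at 96.0 CPM, was above all but 1 of them.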

How the data were processed

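RNA-seq libraries of PTECs from 6 mice were compared by the genotype in the sample labels. The authors extracted RNA with TRIzol, prepared directional libraries and sequenced paired ends. They deposited raw counts per gene symbol, without normalization. The submitters' processing notes name HISAT2 2.0.4 and the build GRCm38. The counting program, annotation and strand setting are not given in the sources used here. Of the columns with per-sample values, 0 were left out.

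From the deposited counts, TMM factors were computed and genes tested by quasi-likelihood in edgeR 4.0.16 (R 4.3.3) on the 14611 genes that passed filterByExpr, with genotype as the only factor and Benjamini-Hochberg adjustment over all of them. Calls needed p under 0.05 and an unshrunken fold change of 1.5 or more. DESeq2 1.42.0 and limma 3.58.1 (voom) were alternatives. The 10 genes and the other 16 lists were chosen with earlier results of these data known, so counts over them are descriptions. Named were all 10 genes, from every other list up to 3 higher and 3 lower genes past the unadjusted threshold by size of fold change, or else the gene with the highest mean count, and Setd2, Vhl and Cdh16. Not every gene that this choice names is reported here. The same choice was made for the contractile, fibroblast and mural genes without VHL-KO replicate 4. Exon lengths and positions came from GENCODE (GRCm38), covering 94.4% of tested genes, and promoters from RefSeq (GRCm38.p6). The fits were tested on simulated data. Replicates are separate mice, and p-values set the group difference against the estimated spread between libraries of the same label.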

Additional observations from a re-analysis of the deposited data

How the results depend on the processing

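None of the 10 genes that had an adjusted p passed the adjusted threshold under the alternatives run, with 7 to 10 of them tested, and DESeq2 gave none of them an adjusted p. The count of genes higher at the unadjusted threshold was 0 under RLE size factors, DESeq2 (no p for Acta2 and Tagln), limma-voom, no filter, at least 10 counts in every library, library sizes without mitochondrial genes, a fold of 2 and the replicate block. Leaving out 1 library at a time gave 0 to 3 genes higher at that threshold, 3 without VHL-KO replicate 4 and 1 (Postn, 2.07) without VHL-KO; Setd2-KO replicate 4. It gave 0 to 3 genes higher without overlap (2 without VHL-KO; Setd2-KO replicate 4, 1 without replicate 3), 0 to 1 lower without overlap, and medians of -0.31 to 1.11. Ranges over these were -1.91 to 1.68 for Acta2, -2.24 to 2.23 for Tagln, -0.12 to 1.11 for Fn1, -0.72 to 0.70 for Pdgfrb, -0.31 to 1.00 for Pdgfra and -0.45 to 0.85 for Dcn. Limma-voom, which averages log values, gave 0.10 for Acta2 and 0.29 for Tagln. Replicate numbers 2 and 4 occur under both labels, but no source pairs the mice, and deviations of same-numbered libraries correlated at 0.16 and -0.32. With the replicate block the median was 0.16, Dcn was -0.57, none of the other 7 tested genes changed sign, and calls over all genes fell from 388 higher and 684 lower to 93 and 54. DESeq2 gave 418 and 1133, with 51 adjusted calls against 1 by edgeR. Over all genes, leaving out 1 library gave 179 to 1243 higher and 206 to 1078 lower. List counts moved too. With the replicate block 0 fibroblast and matrix genes were higher and 1 was lower, against 3 and 0. For TGF-β-responsive genes 0 were higher and 1 was lower, against 2 and 0. Leaving out 1 library gave 0 to 4 higher S100 genes, 0 to 4 higher proteases and inhibitors, 0 to 3 higher mural genes, 0 to 4 higher collecting duct markers and 1 to 4 higher TGF-β-responsive genes. It also gave 2 lower TGF-β-responsive genes without VHL-KO replicate 1 and 1 without VHL-KO replicate 2. Low counts limit Lum, Postn and Timp1, and Postn was not tested with at least 10 counts in every library.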
